A study of Mus musculus with 18 samples.

Results

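Imprinted genes with known roles in growth were examined in mouse fat, namely Mest, Peg3, Dlk1, Igf2, H19, Cdkn1c, Plagl1, Nnat, Sgce and Grb10. The 10 genes were taken by symbol, and all 10 were found among the 45151 symbols present in the files of all 18 samples. The samples came from wild type male C57BL/6 mice (C57BL/6J in the protocols) that were 16 weeks old and fed regular chow, with no treatment, and comprised 6 samples of adipocytes from inguinal white fat (iWAT), 6 of adipocytes from epididymal white fat (eWAT) and 6 of brown adipose tissue (BAT). White adipocytes had been freed with collagenase and taken from the floating layer, whereas BAT had been frozen as whole tissue, so that depot and preparation cannot be told apart in any comparison with BAT. Each sample is called by its depot and the number in its title (iWAT 7). The labels do not say whether samples of a depot came from separate mice or were pooled, and p-values then measure only the spread between these samples.

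An imprinted gene is transcribed mainly from the copy inherited from either the father or the mother, and many genes of this kind act on fetal and postnatal growth. Igf2, Mest, Peg3, Plagl1, Dlk1, Nnat and Sgce are expressed from the paternal copy, and H19, Cdkn1c and, in most tissues, Grb10 from the maternal copy. Genes of the former kind are known to favour growth more often than those of the latter, which tend to restrain it. The expression values used here do not separate the parental copies, as reads were counted per gene. In white fat, Mest is known for a level that differs widely between genetically alike mice and goes with the expansion of fat mass, and Dlk1, also called preadipocyte factor, marks adipocyte precursors and is shut off in mature adipocytes.

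Levels are given as RPKM, the reads per kilobase of a row and scaled to the total of reads of the sample, and depth was 22929576 to 34512470 reads per sample. A row in the iWAT and BAT files is a gene with its exons merged, whereas a row in the eWAT files is a single transcript, and a read can count on several transcripts of a gene. For eWAT the transcript row with most reads was used. Only Cdkn1c had the same row in both kinds of file. The rows of the other genes differ in length, most of all for Sgce, with 10467 bp in the merged row against 1804 bp in the eWAT row, so that an RPKM in eWAT cannot be set against an RPKM in iWAT or BAT for these genes, and counting and depot cannot be told apart. Differences were therefore tested on read counts with edgeR's quasi-likelihood test, where an adjusted p under 0.05 (Benjamini-Hochberg over all genes tested) was the threshold, and an error given after a log2 fold change is its standard error. In bulk samples, fewer cells of a type and less RNA per cell cannot be told apart.

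The labels were checked with marker lists. Summed RPKM of 6 brown adipocyte markers lay from 3012 to 3753 in BAT, and from 79.8 to 126 and 14.1 to 27.8 in iWAT and eWAT samples, and the 6 adipocyte markers were all detected in every depot. Some samples stood apart. BAT 12 had a summed RPKM of 5 skeletal muscle markers of 1340, against 0.550 to 119 in the other 5 BAT samples. In eWAT 15 the 6 macrophage markers summed to 1952, against 136 to 463 in the other eWAT samples, and the 5 epididymis markers summed to 70.96 in eWAT 15 and 76.2 in eWAT 14, against 0 to 3.64 in the remaining eWAT samples and 0 in all iWAT samples. Endothelial markers were highest within iWAT in iWAT 14 (summed RPKM of 135, against 23.2 to 68.7 in the others).

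The start regions of 7 of the 10 genes were found in RefSeq promoter windows (250 bases before to 50 after each start, table of build GRCm38.p6), and all 13 windows of these genes matched the mm9 genome exactly once. Those of the 3 genes with the largest excess in white adipocytes (Mest, Nnat, Plagl1) are given here with that of Dlk1, which was lower there. Capitals mark CpG dinucleotides, the kind of site whose methylation can carry an imprint. Whether the sites shown carry one was not measured. Positions are of mm9, 5′ to 3′ on the strand of the gene.
Mest, chr6:30687803-30688102, plus strand: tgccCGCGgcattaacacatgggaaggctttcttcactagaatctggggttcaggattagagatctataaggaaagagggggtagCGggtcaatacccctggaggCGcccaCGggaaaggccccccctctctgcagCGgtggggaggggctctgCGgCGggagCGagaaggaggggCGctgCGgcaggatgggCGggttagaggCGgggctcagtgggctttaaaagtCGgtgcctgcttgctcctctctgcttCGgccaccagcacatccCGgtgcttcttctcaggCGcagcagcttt
Nnat, chr2:157385564-157385863, plus strand: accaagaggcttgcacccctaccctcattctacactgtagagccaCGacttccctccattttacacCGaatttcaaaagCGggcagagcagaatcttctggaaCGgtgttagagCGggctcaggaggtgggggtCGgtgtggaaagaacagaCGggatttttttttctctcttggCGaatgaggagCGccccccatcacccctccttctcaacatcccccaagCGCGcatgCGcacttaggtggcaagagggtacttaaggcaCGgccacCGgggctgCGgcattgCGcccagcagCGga
Plagl1, chr10:12810388-12810687, plus strand: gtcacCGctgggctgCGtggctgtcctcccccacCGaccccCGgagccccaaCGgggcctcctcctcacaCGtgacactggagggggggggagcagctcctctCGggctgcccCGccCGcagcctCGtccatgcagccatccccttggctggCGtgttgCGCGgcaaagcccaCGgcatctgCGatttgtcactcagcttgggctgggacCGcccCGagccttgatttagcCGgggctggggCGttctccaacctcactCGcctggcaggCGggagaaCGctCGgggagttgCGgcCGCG
Dlk1, chr12:110690783-110691082, plus strand: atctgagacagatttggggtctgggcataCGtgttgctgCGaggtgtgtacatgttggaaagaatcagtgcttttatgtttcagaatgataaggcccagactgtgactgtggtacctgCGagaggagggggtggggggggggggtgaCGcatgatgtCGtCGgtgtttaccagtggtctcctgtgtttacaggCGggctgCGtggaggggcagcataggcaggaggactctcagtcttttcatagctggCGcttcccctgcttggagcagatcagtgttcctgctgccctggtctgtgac

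The Mest window shown and the Nnat window hold 17 CpG dinucleotides each, more than 68.6% of the 32851 windows in the table, whose median is 7. Another Mest window, at the upstream start (chr6:30683256-30683555), holds 8, and 2 of the 18 Mest transcript rows begin there. The Plagl1 window holds 26, and that of Dlk1 holds 9. The most CpG-rich window was that of the longer Grb10 transcripts, with 45, more than 98.1% of all windows, whereas the internal Grb10 start holds 9. The 4 Igf2 windows hold between 2 and 24. The eWAT row with most reads began exactly at the start in the shown Mest window and in the 45-CpG Grb10 window, 2 bp from it for Peg3, 32 bp for Nnat and 44 bp for Plagl1, but 632 bp away for Dlk1. The palindrome GGGGCCCC, the core of sites bound by the PLAGL1 protein, occurred in 1 of the 13 windows, that of Peg3 (13 CpG dinucleotides), and in 1.08% of all windows. The YY1 core AANATGGC, searched on both strands, occurred in none of the 13 and in 6.05% of all windows. These are matches of letters only.

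Within each depot, where rows were the same in all samples, Nnat was the most abundant of the 10 genes in white adipocytes and Cdkn1c in BAT. In iWAT, Nnat had a mean of 512 ± 96.6 RPKM (SD, n = 6) and Mest of 65.5 ± 38.3 RPKM (SD, n = 6). Plagl1, Peg3, Cdkn1c, Grb10 and Sgce followed with means of 9.22 to 4.25 RPKM, and each overlapped its neighbour in this order. Igf2, Dlk1 and H19 were at the bottom in iWAT with means of 0.188, 0.0474 and 0.0239 RPKM. In eWAT, on transcript lengths, the order was Nnat (500.4 ± 184 RPKM, SD, n = 6), Mest (177 ± 47.9 RPKM, SD, n = 6, overlapping Nnat), then Sgce, Plagl1, Grb10, Peg3 and Cdkn1c, each overlapping its neighbour, then Igf2, Dlk1 and H19. In BAT, Cdkn1c had a mean of 8.64 ± 2.04 RPKM (SD, n = 6) and Nnat of 8.18 ± 4.14 RPKM (SD, n = 6), with overlapping ranges, and every neighbour further down overlapped up to Mest, at rank 8 with 0.998 ± 0.268 RPKM (SD, n = 6). Dlk1 and Plagl1 came last there, at 0.316 ± 0.148 and 0.163 ± 0.0521 RPKM (SD, n = 6). With a mean of at least 1 RPKM taken as expressed, 7 of the 10 genes were expressed in each depot, and H19 was among those of BAT through the 1 sample BAT 12.

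**Figure D1:**
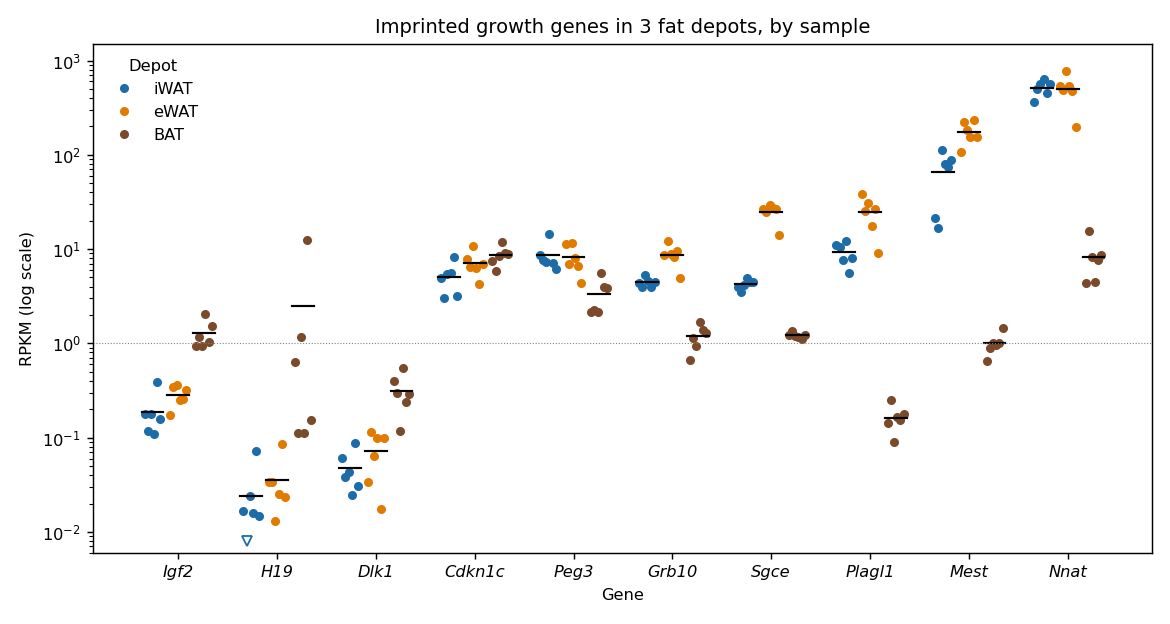
RPKM (log axis) of the 10 genes in each of the 18 samples, coloured by depot, with black bars at the mean of 6 samples. The open triangle is an iWAT sample with 0 reads of H19, drawn below the lowest value, the dotted line is at 1 RPKM, and eWAT values rest on other row lengths than those of iWAT and BAT. Mest, Nnat and Plagl1 lie far above BAT in white adipocytes, and Igf2 and Dlk1 below it.

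The comparison of iWAT with BAT asked how white adipocytes and brown fat differ in these genes, and it used merged rows only. Of the 10 genes, 9 passed the filter of at least 10 reads in at least 6 samples, and H19 did not. Dlk1 passed it through its BAT samples, as it had 3 to 14 reads a sample in iWAT, so its call is a description only. Among the 9, 6 were higher in iWAT (Mest, Nnat, Plagl1, Grb10, Sgce, Peg3), where 34.2% of the 19046 genes tested were higher, and 3 were lower (Igf2, Dlk1, Cdkn1c), where 33.6% were lower. Their median log2 fold change was 1.53, against 0.01 over all genes tested. As the members were chosen with earlier results of these data known, these counts and this median are a description only. The largest differences were those of Mest, Nnat and Plagl1. The comparison of eWAT with BAT shares the BAT samples with the former one. In it, 5 of 9 members were higher (35.6% of 18383 genes) and 3 lower (34.7%), and Peg3 did not pass the threshold. Dlk1, among the lower ones, again passed the filter through its BAT samples, with 2 to 17 reads a sample in eWAT.

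**Figure D2:**
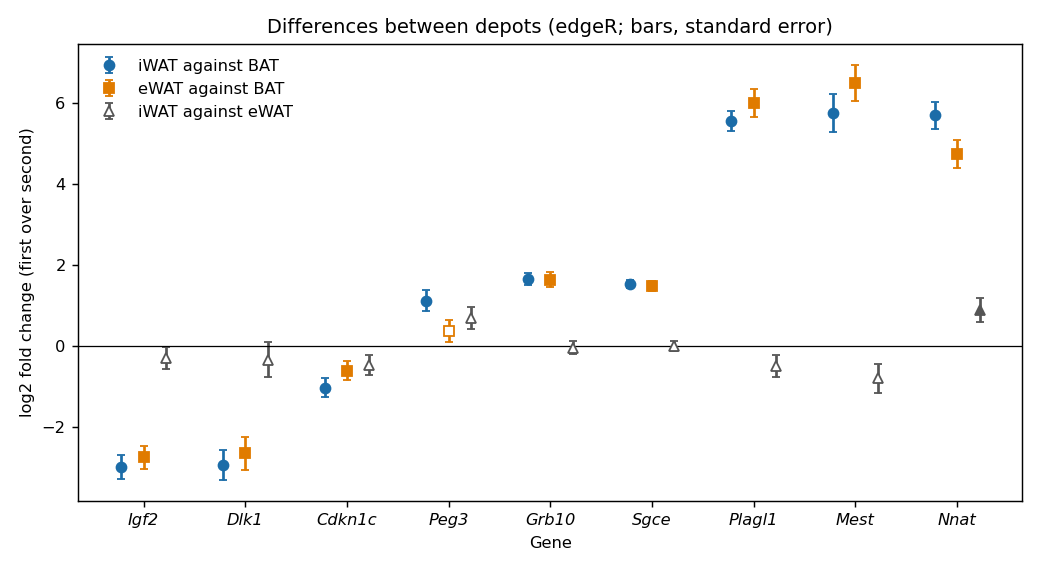
Log2 fold changes (points, with bars of 1 standard error) of the 9 members that passed the filter in iWAT against BAT, eWAT against BAT and iWAT against eWAT, from 6 samples a depot. Filled symbols passed an adjusted p of 0.05 and open ones did not; Mest, Nnat and Plagl1 lie above 4 in both comparisons with BAT, and only Nnat is filled for iWAT against eWAT.

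Mest encodes a membrane protein of the endoplasmic reticulum with a hydrolase-like fold. It lies at chr6:30673547-30698465 (mm9, plus strand). Its RPKM was 16.7, 77.0 and 112 (lowest, median and highest of 6 samples) in iWAT and 0.645, 0.981 and 1.47 in BAT. The lowest iWAT sample was thus above the highest BAT sample, and the log2 fold change was 5.75 ± 0.47 (54.0-fold, edgeR adjusted p = 9.68e-08). In eWAT Mest reads numbered 9589 to 20402 a sample, against 92 to 180 in BAT, and the log2 fold change was 6.50 ± 0.45 (90.8-fold, adjusted p = 2.80e-10). Summing the reads of all 18 Mest transcript rows instead of the most-read row gave 7.29, a setting that counts shared reads repeatedly.

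Nnat, for neuronatin, is a small proteolipid of the endoplasmic reticulum that takes part in calcium handling and is induced during adipocyte differentiation. It lies at chr2:157385814-157388258 (mm9, plus strand) within an intron of Blcap, which is read from the other strand. None of its 1829 annotated exon bases is shared with Blcap, but 87 lie opposite AL672259.1, and without strand information reads of both would be counted together. The RPKM of Nnat was 363, 529 and 634 (lowest, median and highest) in iWAT and 4.36, 8.00 and 15.7 in BAT, with no overlap. Against BAT, the log2 fold change reached 5.70 ± 0.32 for iWAT (51.8-fold, edgeR adjusted p = 2.34e-09) and 4.75 ± 0.34 for eWAT (26.9-fold, adjusted p = 5.13e-10). Blcap itself differed far less, by 0.85 ± 0.10 between iWAT and BAT (edgeR adjusted p = 3.61e-06).

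Plagl1 and Peg3 encode zinc finger transcription factors, and Plagl1 is known as a regulator of other imprinted genes. Plagl1 (chr10:12810497-12851500, mm9, plus strand) had an RPKM of 5.60, 9.37 and 12.1 (lowest, median and highest) in iWAT and 0.0907, 0.159 and 0.250 in BAT, where 24 to 85 reads a sample were behind it. The depots did not overlap, and the log2 fold change was 5.55 ± 0.25 in iWAT (46.9-fold, edgeR adjusted p = 2.41e-10) and 6.00 ± 0.35 in eWAT (63.8-fold, adjusted p = 2.54e-11). Peg3 (chr7:6656603-6683132, mm9, minus strand) behaved otherwise. Its RPKM was 6.12, 7.51 and 14.4 in iWAT and 2.14, 3.05 and 5.57 in BAT, and the log2 fold change was 1.12 ± 0.25 (2.17-fold, edgeR adjusted p = 0.00138). In eWAT against BAT the value was 0.38 ± 0.27 (adjusted p = 0.216) and ranges overlapped. This result depended on the scaling, as it became 0.68 ± 0.28 (edgeR adjusted p = 0.0361) without the TMM step.

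Grb10, an adaptor protein that dampens signalling of the insulin and IGF1 receptors, and Sgce, the epsilon chain of the sarcoglycan complex, were higher in white adipocytes by a smaller factor. Grb10 (chr11:11830502-11938686, mm9, minus strand) had an RPKM of 3.97, 4.47 and 5.27 (lowest, median and highest) in iWAT and 0.673, 1.22 and 1.67 in BAT. The log2 fold change was 1.65 ± 0.15 (3.14-fold, edgeR adjusted p = 3.05e-07) in iWAT and 1.64 ± 0.18 (3.12-fold, adjusted p = 1.34e-07) in eWAT. Sgce (chr6:4624350-4697204, mm9, minus strand) had an RPKM of 3.51, 4.31 and 4.91 in iWAT and 1.11, 1.22 and 1.34 in BAT, without overlap. Its log2 fold change was 1.53 ± 0.09 (2.90-fold, edgeR adjusted p = 3.10e-09) in iWAT and 1.48 ± 0.13 (2.80-fold, adjusted p = 1.03e-08) in eWAT. For both genes the eWAT value was larger when the reads of all transcript rows were summed (2.74 for Grb10 and 3.36 for Sgce).

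Igf2, the fetal insulin-like growth factor, and Dlk1 were low in all depots and lowest in white adipocytes. Igf2 (chr7:149836673-149853560, mm9, minus strand) had an RPKM of 0.110, 0.167 and 0.390 (lowest, median and highest) in iWAT and 0.933, 1.10 and 2.07 in BAT. That is 15 to 70 reads a sample in iWAT and 141 to 357 in BAT, and the log2 fold change was -2.99 ± 0.29 (7.96-fold lower in iWAT, edgeR adjusted p = 6.60e-07). In eWAT it was -2.75 ± 0.28 (6.71-fold lower, adjusted p = 7.12e-08) on the most-read row but -1.77 ± 0.27 (edgeR adjusted p = 6.71e-06) with transcript rows summed, and 98 exon bases of Igf2 lie opposite Igf2as, whose reads cannot be told apart. Dlk1 (chr12:110691033-110701546, mm9, plus strand) had 3 to 14 reads a sample in iWAT, 2 to 17 in eWAT and 16 to 85 in BAT. Its RPKM was 0.0246, 0.0409 and 0.0873 (lowest, median and highest) in iWAT and 0.119, 0.294 and 0.551 in BAT, without overlap. The log2 fold change was -2.94 ± 0.37 (7.69-fold lower in iWAT, edgeR adjusted p = 7.06e-06) and, for eWAT, -2.65 ± 0.40 (6.30-fold lower, adjusted p = 9.51e-06). In both comparisons Dlk1 passed the filter through its BAT samples, where it is high, so these p-values are a description only. Summing the transcript rows brought the eWAT value of Dlk1 to -1.23 ± 0.38 (edgeR adjusted p = 0.00674). In the white adipocyte samples with the fewest reads the depth was at or under the 3 reads taken as the limit of detection, and that limit covers counting error only. Pdgfra, a receptor of adipocyte precursors and fibroblasts, was likewise lower in iWAT than in BAT (-3.15 ± 0.30, edgeR adjusted p = 4.18e-07), whereas the 8 markers of precursors and fibroblasts together, Pdgfra included, summed to 517 to 796 RPKM in iWAT and 42.9 to 70.3 in BAT. The mean of log2(RPKM + 0.1) over the 8 genes overlapped, with 0.71 to 1.99 in iWAT and 1.25 to 1.75 in BAT. Of the 8, 5 were at 1 RPKM or more in iWAT against 6 in BAT. The list as a whole thus gave no single direction, and Pdgfra alone does not stand for it. The part of precursor cells in these values was not tested.

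Cdkn1c, the cyclin-dependent kinase inhibitor p57, is the only member with an identical row in all files (chr7:150644244-150646955, mm9, minus strand, 1942 bp, 4 exons), so its RPKM can be set side by side over the 3 depots. The lowest, median and highest RPKM was 3.04, 5.18 and 8.30 in iWAT and 4.22, 6.64 and 10.8 in eWAT, and BAT samples had 5.83, 8.73 and 12.01. Neighbouring ranges overlapped throughout. The log2 fold change was -1.03 ± 0.23 in iWAT against BAT (2.04-fold lower, edgeR adjusted p = 0.00110) and -0.61 ± 0.24 in eWAT against BAT (1.52-fold lower, adjusted p = 0.0289). The second call was lost when TMM was left out (-0.29 ± 0.24, edgeR adjusted p = 0.290) and when only the rows shared by both kinds of file were fitted (-0.50 ± 0.24, adjusted p = 0.0718). It was also lost when eWAT 8, eWAT 13, eWAT 14 or BAT 11 was left out alone, with adjusted p from 0.0557 to 0.0693 in edgeR. The same held without eWAT 14 and eWAT 15 together (edgeR adjusted p = 0.113), without the filter (0.0576) and with transcript rows summed (0.279). With limma on RPKM, whose row is the same here, the call was lost at pseudocounts of 0.1 and 1 (limma adjusted p = 0.241 and 0.238).

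H19, the untranslated RNA transcribed next to Igf2 from the maternal copy, was detected mainly in BAT and there very unevenly. It lies at chr7:149761434-149764051 (mm9, minus strand), and 84 of its exon bases are those of the microRNA gene Mir675. In iWAT it had 0 to 6 reads a sample and 11 in all, and in eWAT 1 to 6 and 17 in all. BAT 6 had 58 reads, BAT 7 had 10, BAT 8 had 81, BAT 11 had 9, BAT 12 had 1025 and BAT 13 had 12, so that BAT 12 alone held 85.8% of the 1195 reads. In RPKM, BAT 12 was at 12.6 and the other 5 BAT samples were at 0.112 to 1.159 (mean without BAT 12, 0.436 ± 0.462, SD, n = 5). Every BAT sample was above every white adipocyte sample. As H19 missed the filter, its difference was fitted without one. The log2 fold change was -6.72 ± 1.34 in iWAT against BAT (edgeR adjusted p = 0.000476) and became -4.25 ± 0.75 (adjusted p = 0.000131) without BAT 12, a setting added after the data were seen. For eWAT against BAT these values were -6.35 ± 1.14 (adjusted p = 8.90e-05) and -3.85 ± 0.69 (adjusted p = 0.000111). At so few reads in white adipocytes a fitted fold change depends on the prior count used by the fit and is no bound.

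Skeletal muscle, a tissue in which H19 stays on after birth, lies close to BAT in the animal, and muscle genes varied between the same BAT samples. Acta1, which encodes skeletal muscle actin, was at 576.5 RPKM in BAT 12, 49.8 in BAT 8 and 17.9 in BAT 6, and at 0.262 to 3.37 in BAT 7, BAT 11 and BAT 13. H19 was highest in BAT 12, next in BAT 8 and then in BAT 6, the same order. Among the other 3 samples, BAT 11 had the most Acta1 but about as little H19 (0.113 RPKM) as BAT 7 (0.112 RPKM). Igf2 did not follow this order, with 1.04 RPKM in BAT 12 and its highest value, 2.07, in BAT 11. Outside BAT, Acta1 was at 68.2 RPKM in iWAT 12 and 46.6 in iWAT 15, where H19 was at 0.0238 and 0.0148. Ckm, another muscle gene, was at 3.85 and 0.0820 RPKM in these samples, against 10.5 in BAT 6. The part of muscle in the H19 values was not tested.

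**Figure D3:**
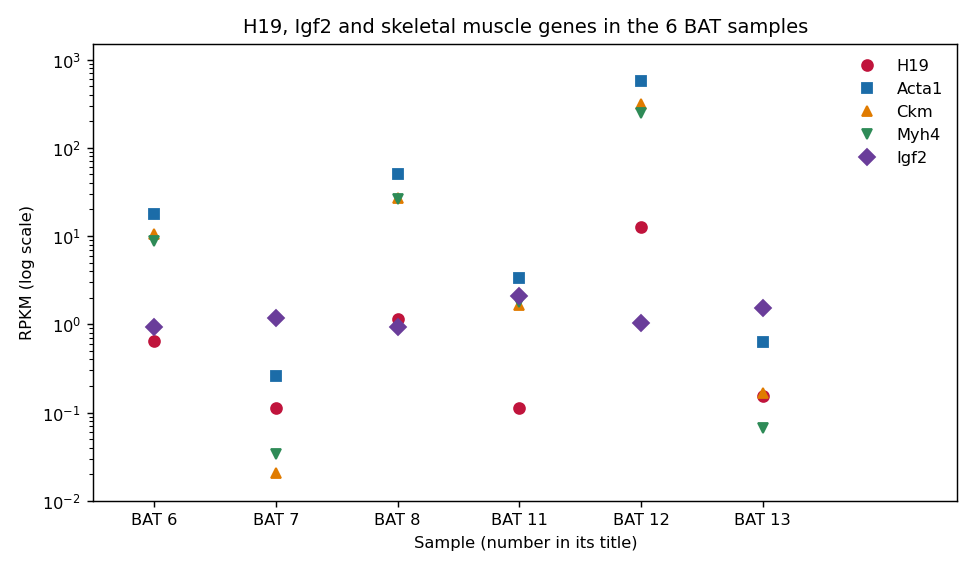
RPKM (log axis) of H19, Igf2 and 3 skeletal muscle genes (Acta1, Ckm, Myh4) in each of the 6 BAT samples, 1 point a gene and sample. H19 and the muscle genes are highest in BAT 12, followed by BAT 8 and BAT 6, while Igf2 stays between 0.933 and 2.07.

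Between iWAT and eWAT, 1 member of 9 passed the threshold. Nnat was higher in iWAT by 0.90 ± 0.29 on the log2 scale (1.86-fold, edgeR adjusted p = 0.0302), where 13.4% of the 18383 genes tested were higher in iWAT, and none was lower, where 12.3% of genes were lower. The Nnat call was lost without eWAT 8, eWAT 14, iWAT 13 or iWAT 15 (adjusted p from 0.0519 to 0.0617), and the sum of its transcript rows gave 0.57 ± 0.29 (adjusted p = 0.0880). For Mest the value was -0.80 ± 0.35 (adjusted p = 0.101), for Peg3 0.70 ± 0.27 (adjusted p = 0.0623) and for Plagl1 -0.49 ± 0.27 (adjusted p = 0.198), all from edgeR. Other settings called some of these. Peg3 passed with DESeq2 (0.70, adjusted p = 0.0379), with transcript rows summed (0.67, edgeR adjusted p = 0.0314) and without eWAT 7 or eWAT 11 (0.83 and 0.81, edgeR adjusted p = 0.0342 and 0.0407). Plagl1 passed without eWAT 15 (-0.66, edgeR adjusted p = 0.0387) and with limma on RPKM, where row lengths differ (-1.32, adjusted p = 0.000419). Without iWAT 14, Igf2 and Cdkn1c passed as lower in iWAT (-0.67 and -0.68, edgeR adjusted p = 0.0362 and 0.0297). With transcript rows summed, Mest was lower in iWAT by -1.56 ± 0.35 (edgeR adjusted p = 0.000713), and Dlk1, Igf2, Cdkn1c, Sgce and Grb10 also passed as lower in iWAT under that setting. The most-read row leaves out some reads of a gene and the sum counts others repeatedly, so whether Mest differed between the white depots hangs on how reads were counted. For Sgce the most-read row gave 0.00 ± 0.13 and the sum -1.84 ± 0.13. Its most-read rows in eWAT span the same stretch with nearly the same reads (8328 and 8287). A summed value thus depends on how many rows share reads, and it cannot give a direction for Sgce or the other genes.

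Within iWAT, Mest was the most variable of the 7 expressed members. In iWAT 7 it was at 21.3 RPKM, in iWAT 11 at 16.7, in iWAT 12 at 112, in iWAT 13 at 80.0, in iWAT 14 at 74.1 and in iWAT 15 at 88.5. The values fell into a low pair, iWAT 7 and iWAT 11, and 4 higher samples. The SD of log2(RPKM + 0.1) was 1.162, larger than that of 99.3% of the 13259 genes with a mean of at least 1 RPKM in iWAT, whose median SD was 0.206. The other expressed members were less variable there, with SDs from 0.146 for Grb10 to 0.533 for Cdkn1c. The SD of Mest was smaller in eWAT, at 0.419 (larger than 77.9% of 13102 genes), and BAT samples gave 0.345. Of the samples with the low iWAT numbers, eWAT 7 was also the lowest in eWAT, with Mest at 106 RPKM in a range of 106 to 234. Mest was at 184 RPKM in eWAT 11, and at 0.897 and 0.951 in BAT 7 and BAT 11, within the range of the other samples. Which mouse a number stands for is not given in the labels. Sgce was the least variable member in BAT, with an SD of 0.0845, larger than that of 8.75% of expressed genes.

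Several other genes were low or high in iWAT 7 and iWAT 11. Lep, which encodes leptin, was at 308 and 225 RPKM in this pair and at 485 to 691 in the other 4 iWAT samples. The 6 macrophage markers summed to 155 and 83.6 RPKM in the pair and to 26.5 to 39.5 in the others, and the 6 adipocyte markers to 3481 and 4039, against 4555 to 5267. The part of cell makeup in the Mest values was not tested. The genes most like Mest were sought over the 12 iWAT and BAT samples as Pearson's r of log2(RPKM + 0.1) after removing depot means, among 11665 genes with a mean of at least 1 RPKM in both depots. They were Acta2 (r = 0.950), which encodes smooth muscle actin, Copg2 (0.941), a subunit of the COPI vesicle coat, Flot1 (0.929), a membrane scaffold protein, Dgcr14 (0.922) and LOC100502647 (0.920). Sfrp5, an extracellular Wnt antagonist listed beside Bmp3 and Npr3 for its reported variation with Mest, had r = 0.960 but fell outside the ranking, as its mean in BAT was under 1 RPKM. Its RPKM was 21.4 in iWAT 7, 14.6 in iWAT 11 and 56.9 to 78.0 in the other iWAT samples. Bmp3 (r = 0.710) and Npr3 (r = 0.558) followed Mest less closely. These coefficients describe 12 samples that mostly repeat the low pair against 4 samples, and genes are not independent of each other.

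**Figure D4:**
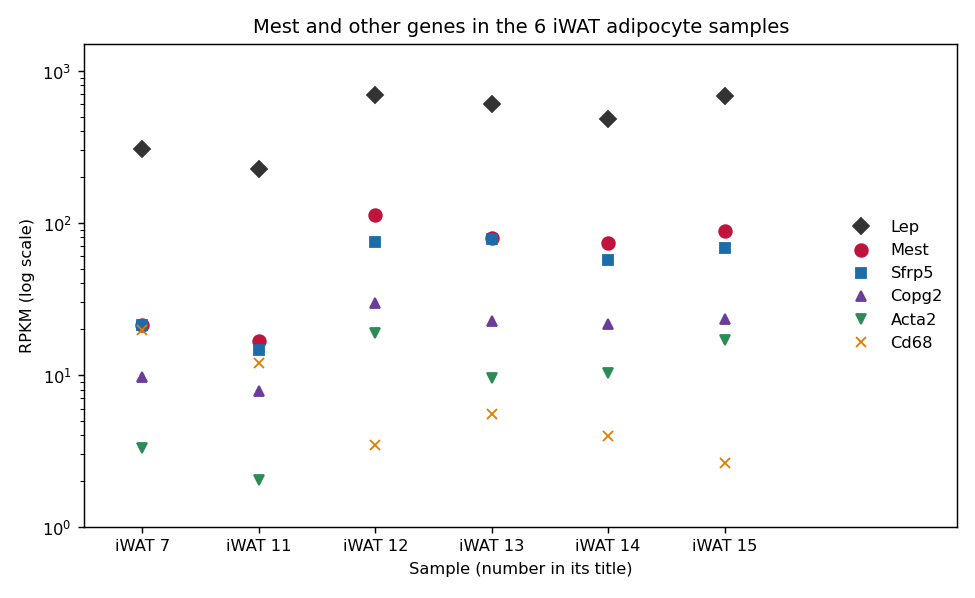
RPKM (log axis) of Mest, Sfrp5, Copg2, Acta2, Lep and the macrophage gene Cd68 in each of the 6 iWAT adipocyte samples, 1 point a gene and sample. Mest is at 21.3 and 16.7 in iWAT 7 and iWAT 11 and between 74.1 and 112 in the others, and Cd68 is higher in that pair.

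The likeness of Copg2 is uncertain. Within depots, its r with Mest was 0.998 in iWAT but -0.146 in BAT, where the other ranked genes named had 0.511 to 0.789. Copg2 (chr6:30697554-30846794, mm9) is read from the strand opposite to Mest, and 904 exon bases of the pair overlap at their 3′ ends, while the library kit named in the labels is not stated to keep strand. In the 6 eWAT samples together, the Copg2 transcript row that reaches over this stretch had 50344 reads, and the row of the main RefSeq transcript, which leaves nearly all of it out, had 11728. Reads of Mest and Copg2 over the shared stretch cannot be told apart. Across all 18 samples, none of the 9 other members was related to Mest past the threshold. The strongest was Grb10, with r = 0.339 (permutation p = 0.0333, adjusted over 9 relations 0.300) and Spearman's rho = 0.657 (permutation p = 0.00839, adjusted 0.0755) after removing depot means. Without iWAT 7 and iWAT 11, the samples farthest from the median of Mest, r was 0.531, and within depots of 6 samples it was 0.607 (iWAT), 0.434 (eWAT) and 0.599 (BAT). As Mest falls into separate sets in iWAT, the pooled value is a description only.

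The list of 52 other imprinted genes was chosen with results of these data known, and 37 of them passed the filter in iWAT against BAT. Of these, 17 were higher in iWAT (34.2% of all genes tested were), 9 were lower (33.6% of all genes) and 11 did not pass the threshold, with a median log2 fold change of 0.17, against 0.01 over all genes. In eWAT against BAT 15 of 38 were higher and 15 lower (35.6% and 34.7% of all genes), and in iWAT against eWAT 4 of 38 were higher and 5 lower (13.4% and 12.3% of all genes). On chromosome 6, next to Sgce, the retrotransposon-derived Peg10 was higher in iWAT than in BAT by 3.69 ± 0.25, the protease inhibitor gene Tfpi2 by 3.28 ± 0.16 and the paraoxonase gene Pon2 by 1.36 ± 0.09 (log2, edgeR adjusted p = 1.61e-08, 5.31e-10 and 9.20e-09). These were named for their large changes. Listed genes of the same region changed less, with 0.99 ± 0.17 for Ppp1r9a and 0.57 ± 0.10 for Pon3, and Asb4 did not pass the threshold (-0.49 ± 0.30, edgeR adjusted p = 0.164). Further along, near Mest, Copg2 was higher by 2.60 ± 0.27 (edgeR adjusted p = 1.30e-06, with the shared stretch above), and the transcription factor gene Klf14 was at 1.97 ± 0.945 RPKM in iWAT (SD, n = 6). In eWAT Klf14 was at 4.06 ± 1.13 RPKM, whereas BAT had 0.00916 ± 0.0127 (SD, n = 6 each), with 5 reads in its 6 samples together.

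On chromosome 12, next to Dlk1, the long noncoding RNA genes Meg3 and Rian were lower in iWAT than in BAT by -3.80 ± 0.32 and -3.03 ± 0.30 (edgeR adjusted p = 1.49e-07 and 6.23e-07). Meg3 was at 0.0884 ± 0.0512 RPKM in iWAT (SD, n = 6) and 1.04 ± 0.300 in BAT (SD, n = 6). Dlk1 and Meg3 come from opposite parental copies, and both were lower in the white adipocytes. In the distal cluster of chromosome 7, around Cdkn1c, the noncoding Kcnq1ot1 was lower by -1.95 ± 0.21 (edgeR adjusted p = 1.68e-06), but the transporter gene Slc22a18 was higher in iWAT by 3.92 ± 0.21 (edgeR adjusted p = 1.56e-09), so the cluster did not move in a single direction. Gnas, which encodes the stimulatory G protein alpha subunit, was lower in iWAT by -1.40 ± 0.09 (edgeR adjusted p = 1.06e-08), at 31.7 ± 3.19 RPKM against 69.6 ± 6.22 in BAT (SD, n = 6 each). No test of position was made.

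Of the 8 listed partners of IGF and insulin signalling, 7 passed the filter in iWAT against BAT, with 3 higher, 2 lower and 2 not past the threshold, where 34.2% of all genes were higher and 33.6% lower. The adaptor gene Irs2 was higher in iWAT by 4.38 ± 0.39 (edgeR adjusted p = 2.49e-07), Igf2bp2, whose protein binds Igf2 mRNA, by 0.78 ± 0.18 (adjusted p = 0.00175) and the insulin receptor gene Insr by 0.53 ± 0.15 (adjusted p = 0.00557). The IGF1 receptor gene Igf1r was lower by -0.45 ± 0.14 (edgeR adjusted p = 0.0119) and Igf2bp3 by -0.75 ± 0.24 (adjusted p = 0.0138). For Igf2r, the imprinted receptor that clears IGF2, the difference was 0.00 ± 0.08 (edgeR adjusted p = 0.964). In RPKM, which has no TMM step, Igf2r was at 6.51 ± 0.816 in iWAT and 5.40 ± 0.503 in BAT (SD, n = 6 each). Small differences of these partner genes thus hang on the scaling, and no fit of them without TMM is given. In eWAT against BAT 3 of 7 were higher and 1 lower (35.6% and 34.7% of all genes), and in iWAT against eWAT 2 of 7 were higher and 1 lower (13.4% and 12.3%).

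The direction of calls over all genes depended on scaling. With TMM, 50.4% of the genes called in iWAT against BAT and 50.6% of those in eWAT against BAT were higher in the white adipocytes. Without it these shares were 66.0% and 66.3%, and the median log2 fold change of all genes moved from 0.01 to 0.28 and from 0.03 to 0.36. With limma on log2(RPKM + 0.1) they were 65.4% and 77.9%. The share for eWAT against BAT rests on rows that differ in length as well, so it is not a matter of scaling alone. For iWAT against eWAT, 52.2% of called genes were higher in iWAT with TMM and 10.2% with limma on RPKM, where rows differ in length. In iWAT against BAT, all 9 members kept direction and call under each of these settings.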

How the data were processed

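RNA-seq libraries of 18 samples (6 of iWAT adipocytes, 6 of eWAT adipocytes, 6 of BAT) had been prepared with a NEBNext Ultra kit and sequenced on a HiSeq instrument. Per the paper's methods, reads were mapped to mm9 and analysed with the Genomatix Genome Analyzer. The submitters' processing notes name cutadapt (version 1.16) and HISAT2 (version 2.1.0) without their role, and the annotation and counting mode are not given in the sources used here. The authors deposited raw read counts per row, and the authors also deposited RPKM values, equal to counts scaled by row length and 1 total of reads per sample (22929576 to 34512470). Rows are 53445 merged genes in iWAT and BAT and 189660 transcripts in eWAT, of which 27301 are shared. Reads carry no molecular identifiers.

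What follows was computed here. Samples were grouped by depot label. For each symbol the merged row, or in eWAT the transcript row, with most reads was used. The members and gene lists were chosen with earlier results of these data known. Depots were compared with edgeR (version 4.0.16, R version 4.3.3), glmQLFit and glmQLFTest, with TMM, genes reaching 10 reads in 6 or more samples, no block, and an adjusted p (Benjamini-Hochberg) under 0.05. iWAT against BAT was fitted on 12 samples and the others on 18. Standard errors were derived from F. Tested on simulated counts with 2-fold changes, the code called 146 of 198 changed genes for iWAT against BAT, 112 of 195 for eWAT against BAT and 117 of 197 for iWAT against eWAT. Correlations with Mest used 100000 two-sided permutations within depots in Python (version 3.11.15). Named were all members, the 8 other imprinted genes with the largest change between iWAT and BAT among those past the threshold and at 1 RPKM or more in either depot, the 5 genes most like Mest, Sfrp5, Bmp3 and Npr3. Rian, Kcnq1ot1, Ppp1r9a, Pon3, Asb4, Blcap, Pdgfra, Lep and the signalling partners were named after their values were seen. Promoter sequences are from RefSeq (GRCm38.p6), and exon overlaps are from GENCODE on mm9. Alternatives were no TMM, no filter, limma (version 3.58.1) on log2-transformed RPKM after adding 0.1 or 1, DESeq2 (version 1.42.0), summed transcripts, shared rows, a block and leaving out samples.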

Additional observations from a re-analysis of the deposited data

Results flagged for a closer look

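The 10 genes gave 30 sets of 6 samples (a gene in a depot). In 6 of them the highest or lowest sample stood apart by a gap that exceeded Dixon's critical share of the whole range. About 1.5 in 30 would do so by chance if values were normally distributed and sets independent. Neither holds for RPKM at few reads and genes measured in the same samples, so the 2 counts are not a test. H19 was flagged in each depot, at 12.6 RPKM in BAT 12 (gap 0.916 of the range), at 0.0722 RPKM in iWAT 14 and at 0.0862 RPKM in eWAT 14, the last 2 values resting on 6 reads each. Igf2 was at 0.390 RPKM in iWAT 14, against a mean of 0.148 ± 0.0322 (SD, n = 5) in the other iWAT samples, and iWAT 14 had the highest endothelial marker sum of the iWAT samples. Peg3 was at 14.4 RPKM in iWAT 13, against 6.12 to 8.71 in the others. Sgce was at 14.3 RPKM in eWAT 15, against a mean of 27.1 ± 1.53 (SD, n = 5) in the other eWAT samples. In the same sample Nnat (198 RPKM), Plagl1 (9.13 RPKM), Grb10 (4.94 RPKM) and Peg3 (4.33 RPKM) were also the lowest of their eWAT values. Mest (155 RPKM), Cdkn1c (6.88 RPKM), Igf2 (0.317 RPKM), Dlk1 (0.0984 RPKM) and H19 (0.0233 RPKM) were not the lowest there. In eWAT 15 the macrophage marker sum was the highest (1952) and the adipocyte marker sum the lowest of eWAT (2928). The part of cell makeup in these values was not tested.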

How the results depend on the processing

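In iWAT against BAT the members kept direction and call under every alternative run. In eWAT against BAT only Peg3 and Cdkn1c changed call, and on shared rows alone, where Cdkn1c is the only member, 0 members and 3828 of 5637 genes tested (12916 of 18383 otherwise) were called. Between iWAT and eWAT the results hung on the processing. Of the members, 1 was called with edgeR on the most-read rows, 2 with DESeq2, 4 with limma at either pseudocount, 7 with summed transcripts, 0 on shared rows, 0 without eWAT 14 and eWAT 15, and 0 to 3 when a single sample was left out. Calls over all genes were 4714 of 18383, and became 9642 and 9492 of 18383 with limma (pseudocounts of 0.1 and 1), 13584 of 19030 with summed transcripts, which count reads repeatedly, and 726 of 5637 on shared rows. Sgce, at 0.00, turned to -2.49 and -2.27 with limma, -1.84 with summed transcripts, -0.015 without TMM, -0.12 without eWAT 14 and eWAT 15, and -0.11 to 0.046 with single samples left out. Grb10, at -0.04, became -0.91 and -0.80 with limma and -1.10 with summed transcripts, all past the threshold, and ranged from -0.15 to 0.069 with single samples left out and was above 0 without eWAT 8. The limma values rest on RPKM, whose rows differ in length. Sgce rows have 10467 bp in iWAT and 1804 bp in eWAT, and Grb10 rows 9594 and 5089 bp. Summed transcripts count reads repeatedly. Neither setting compares like with like, so these shifts cannot be read as differences between depots. The cause of the other shifts was not tested. The correlation of Mest with Peg3, at 0.00, became -0.043 with a pseudocount of 1 and -0.087 on TMM-rescaled RPKM. At a minimum of 2 RPKM, 4 instead of 7 members were expressed in BAT. Samples of the same number in different depots showed little likeness (r over 0.1 in 2 of 13 pairs of the same number, and best with its own number in 2 of 26 cases). This cannot settle whether they came from the same mouse, as cell makeup also varied between samples. With the numbers as a replicate block, 9 members were called in iWAT against BAT, 7 in eWAT against BAT (Cdkn1c was lost) and 0 in iWAT against eWAT (Nnat was lost). Depth limits Dlk1 and H19 in white adipocytes.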
